A study of Mus musculus with 9 samples.

Results

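The guanylate-binding proteins (GBPs) and the immunity-related GTPases (IRGs) are interferon-inducible GTPases that guard the inside of the cell. The 9 genes followed here were Gbp2, Gbp3, Gbp6, Gbp7, Igtp, Irgm1, Irgm2, Iigp1 and Tgtp1, read from the FPKM table by their Ensembl identifiers. They are 9 of the 31685 genes of the table, and all 9 were among the 13056 genes that reached 1 FPKM in at least 3 mice and were tested. FPKM is the number of read fragments scaled by transcript length and library size, so levels of different genes can be set side by side. RNA came from the jejunum of wild-type C57BL/6J mice, aged 6 to 8 weeks, with 3 mice in each of 3 groups. Control mice were labelled as having no treatment. In TAI mice the whole abdomen was irradiated with X-rays, 12 Gy in 1 session at 75 cGy/min (total abdominal irradiation), and the tissue was taken on day 3. The series text gives PBS as the vehicle after irradiation. TAI/IVIg mice were irradiated alike and given intravenous immunoglobulin (IVIg) into a vein, 500 mg/kg each time, first no later than 1 h afterwards and then every 3 days. The labels give 1 batch for all mice and do not say whether the replicate numbers tie mice of different groups together.

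In the classical view, interferon γ binds the receptor made of IFNGR1 and IFNGR2, the kinases JAK1 and JAK2 pass the signal on, and transcription factors such as IRF1 switch on Gbp and Irg genes through elements in their promoters. The proteins then load onto vacuoles or onto bacteria in the cytosol, where they break membranes and expose the contents to inflammasome sensors. Irgm1, Irgm2 and Igtp (also called IRGM3) are the regulatory IRGs, which sit on the cell's own membranes and keep the effector IRGs inactive there. Iigp1 (Irga6) and Tgtp1 (Irgb6) are effector IRGs, which coat the parasite vacuole. In the intestine the same families respond to interferon in epithelial cells as well as in leukocytes.

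The genes whose promoters could be read share an element of interferon-inducible genes. They were chosen as genes induced by interferon γ, so this sharing carries no test and no independent support. RefSeq promoters on GRCm38.p6 were given for 7 of the 9 genes, and Gbp6 and Iigp1 had no entry. The 250 bases before each start were searched on both strands for the core of the interferon-stimulated response element (ISRE; GAAA, 2 further bases, GAAA) and for the interferon γ-activated sequence (GAS; TTCNNNGAA). All 7 genes had at least 1 ISRE core, although Gbp3 had it in only the first of its pair of annotated starts, against 2.98% of the 32851 promoters in the table. A GAS motif was present in 4 of the 7 (Igtp, Irgm2, Tgtp1 and Gbp7), against 7.02% of all promoters. The windows of 30 bases around the ISRE core are shown because they hold that shared core, together with a GAS motif in Igtp, Irgm2 and Tgtp1. They are written 5′ to 3′ on the strand of the gene, and capitals mark ISRE cores and GAS motifs.
Irgm1 (chr11:48871432-48871461, minus strand): gcctgtttcaaGAAATAGAAACCGAAActg
Irgm2 (chr11:58214902-58214931, plus strand): TTCCAGGAActGAAACTGAAAgctgttcgg
Igtp (chr11:58199511-58199540, plus strand): TTCTAGGAActGAAACTGAAAgctgttcgg
Tgtp1 (chr11:48992305-48992334, minus strand): TTCCAGGAAtcGAAACTGAAAcctacctga
Gbp2 (chr3:142620593-142620622, plus strand): aactcttttagTTTCACTTTCactgtctta
Gbp3 (chr3:142559988-142560017, plus strand): tcaggacacagTTTCAGTTTCTATTTCcca
Gbp7 (chr3:142530272-142530301, plus strand): tgtgtgtgcagTTTCAGTTTCagttctcca

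In Igtp, Irgm2 and Tgtp1 the GAS motif ended 2 bases before the ISRE core, and in Igtp and Irgm2 the ISRE core lay 34 and 64 bases before the RefSeq start. The GENCODE spans given below differ from these starts. Those of Irgm1, Irgm2 and Tgtp1 begin upstream of the windows shown, and that of Gbp2 begins within its window. With Irgm2 moved by 30 bases against Igtp, 134 of 220 aligned upstream bases (60.9%) were identical. Irgm1 and Gbp3 each had 2 overlapping ISRE cores and no GAS motif, and in the 3 Gbp genes of chromosome 3 the ISRE core ran in the opposite orientation. In Gbp7 the nearer of 2 GAS motifs began 87 bases before the start, outside the window shown. A match of letters is a description and not a measured binding site.

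In the untreated jejunum the regulatory IRGs were the most abundant of the 9 transcripts. Mean FPKM in the control group was 124 ± 20.3 for Igtp, 93.6 ± 8.70 for Irgm1 and 48.7 ± 6.98 for Irgm2 (SD, n = 3), and these 3 ranges did not overlap each other. Gbp3 (42.2 ± 6.97), Iigp1 (35.6 ± 2.26) and Gbp2 (31.6 ± 11.2) followed with ranges that overlapped from each gene to the next, and the range of Gbp3 also overlapped that of Irgm2. Gbp7 (11.5 ± 2.05) was below all of these in every control mouse. Tgtp1 (6.04 ± 2.28) and Gbp6 (5.27 ± 0.134) were lowest and overlapped each other. Igtp led in all 9 mice. The transcript next to it was Irgm1 in all 3 control mice and Irgm2 in all 6 irradiated mice.

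**Figure D1:**
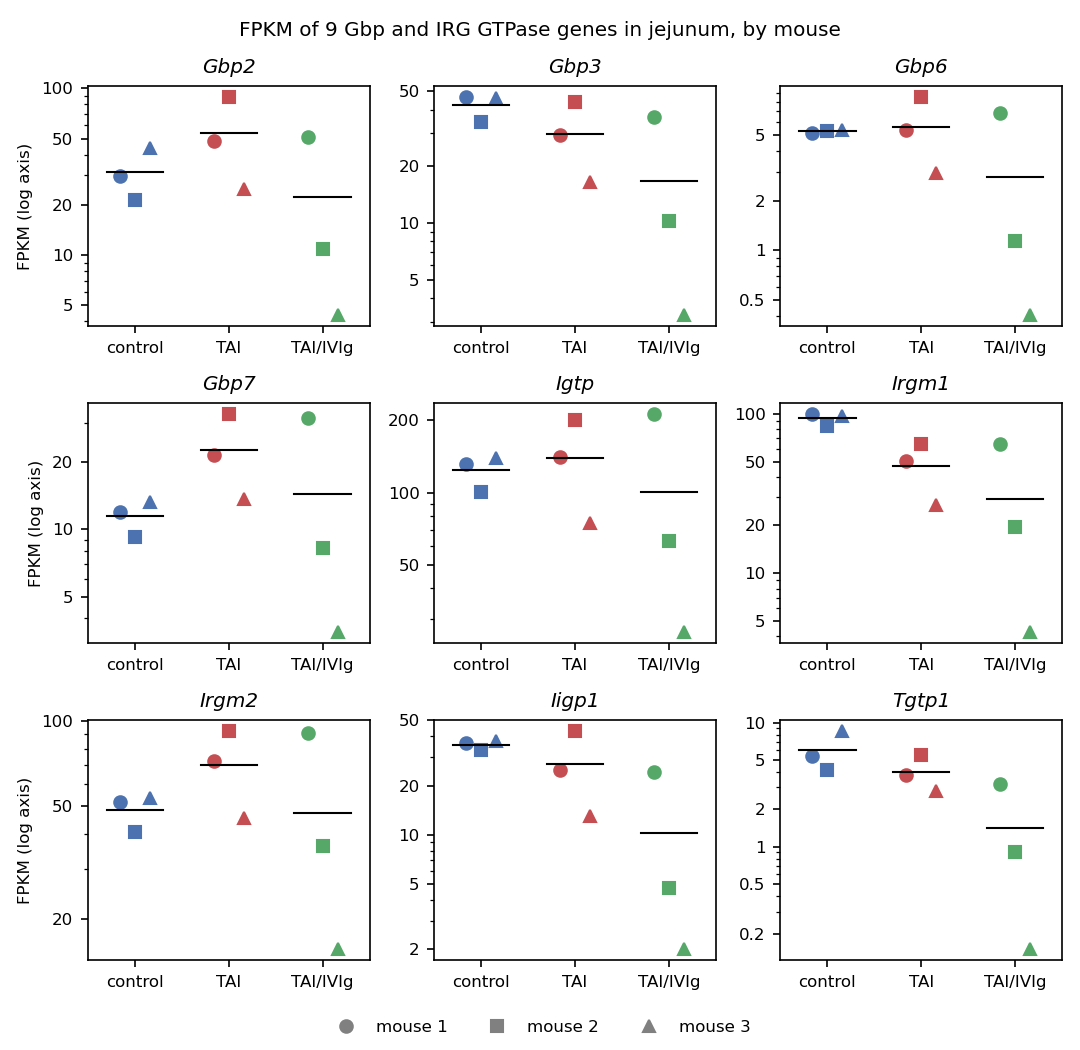
FPKM on a log axis for each of the 9 genes in control, TAI and TAI/IVIg mice, where symbols mark mice 1, 2 and 3 within a group and black lines mark group means (n = 3). In every panel TAI mouse 2 lies above mouse 1 and mouse 3 lies lowest, and TAI/IVIg mouse 1 lies above mouse 2 and mouse 3 lies lowest.

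After irradiation the 9 genes differed strongly between mice of the same group. TAI/IVIg mouse 1 lay within the TAI range for 8 of the 9 genes and above it for Igtp, whereas mice 2 and 3 lay below every TAI mouse for all 9. Within the TAI/IVIg group, FPKM in mouse 1 was 5.79 times (Irgm2) to 21.6 times (Tgtp1) that in mouse 3. All 9 genes placed the TAI mice in the order 2, 1, 3 and the TAI/IVIg mice in the order 1, 2, 3, from highest to lowest. Only 6.6% of all tested genes (862 of 13056) had both of these orders, which were read off the members first and so carry no test. The SD within groups on the log2(FPKM + 1) scale ran from 0.65 (Tgtp1) to 1.13 (Gbp2) for the members, and the median over all tested genes was 0.24. The members lay above 93.9% to 98.7% of tested genes in this spread. After group means were subtracted, Pearson's r between members over the 9 mice was 0.90 to 1.00 in the 36 pairs, which share the same libraries.

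Irgm1 is a regulatory IRG that acts on Golgi, lysosomal and mitochondrial membranes and in autophagy. It had the most negative log2 fold change of the members in TAI against control. In TAI/IVIg against control it was nearly level with Iigp1 on log2(FPKM + 1) (-2.30 and -2.27, SE 0.75 and 0.69). Irgm1 (ENSMUSG00000046879; chromosome 11, 48861968 to 48871683, minus strand) had 99.8, 83.7 and 97.3 FPKM in control mice 1, 2 and 3. It had 50.2, 64.7 and 26.7 in TAI mice 1, 2 and 3, and 64.3, 19.4 and 4.24 in TAI/IVIg mice 1, 2 and 3. Every irradiated mouse was below every control mouse, and TAI and TAI/IVIg mice overlapped. The log2 fold change on log2(FPKM + 1) was -1.06 in TAI against control (SE 0.75, 95% interval -2.76 to 0.65, limma adjusted p = 0.297) and -2.30 in TAI/IVIg against control (SE 0.75, interval -4.01 to -0.60, limma adjusted p = 0.0333). In TAI/IVIg against TAI it was -1.25 (SE 0.75, interval -2.95 to 0.46, limma adjusted p = 0.477).

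Irgm2 is a Golgi-associated regulatory IRG that restrains caspase-11 responses. Irgm2 (ENSMUSG00000069874; chromosome 11, 58199618 to 58222782, plus strand) had 51.8, 40.7 and 53.6 FPKM in control mice 1, 2 and 3, 72.4, 92.3 and 45.4 in TAI mice, and 90.4, 36.4 and 15.6 in TAI/IVIg mice, in the same order of mice. TAI mouse 3 lay within the control range, and the TAI/IVIg mice lay above and below it. Its log2 fold change was 0.47 in TAI against control (SE 0.53, interval -0.73 to 1.67, limma adjusted p = 0.513), -0.36 in TAI/IVIg against control (limma adjusted p = 0.590) and -0.83 in TAI/IVIg against TAI (limma adjusted p = 0.497).

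Igtp, which resides at the endoplasmic reticulum, was the most abundant member in all 9 mice. Igtp (ENSMUSG00000078853; chromosome 11, 58199556 to 58207591, plus strand) had 132, 101 and 139 FPKM in control mice 1, 2 and 3, 141, 201 and 75.1 in TAI mice, and 213, 62.8 and 26.2 in TAI/IVIg mice. Its groups overlapped in all 3 comparisons, with log2 fold changes of 0.07 (interval -1.41 to 1.55, limma adjusted p = 0.944), -0.79 (interval -2.26 to 0.69, limma adjusted p = 0.340) and -0.85 (interval -2.33 to 0.63, limma adjusted p = 0.561) in TAI against control, TAI/IVIg against control and TAI/IVIg against TAI. Annotated exons of Igtp and Irgm2 share 162 bases on the same strand, so a part of their reads could not be assigned to either with certainty.

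Both effector IRGs among the 9 genes, Iigp1 and Tgtp1, were lower in the TAI/IVIg group than in controls. Iigp1 (ENSMUSG00000054072; chromosome 18) had 36.3, 33.0 and 37.4 FPKM in control mice 1, 2 and 3, 25.0, 43.2 and 13.1 in TAI mice, and 24.1, 4.73 and 2.00 in TAI/IVIg mice. All TAI/IVIg mice were below all controls, and TAI mice lay on either side of the control range. Its log2 fold change was -2.27 in TAI/IVIg against control (SE 0.69, interval -3.84 to -0.71, limma adjusted p = 0.0254), -0.53 in TAI against control (limma adjusted p = 0.575) and -1.75 in TAI/IVIg against TAI (interval -3.31 to -0.18, limma adjusted p = 0.364).

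Tgtp1 (ENSMUSG00000078922; chromosome 11, 48985327 to 48994172, minus strand) had 5.42, 4.13 and 8.56 FPKM in control mice 1, 2 and 3, 3.75, 5.52 and 2.80 in TAI mice, and 3.21, 0.900 and 0.149 in TAI/IVIg mice. TAI/IVIg mice were again below all controls, but these values rested on few reads, from 475 in control mouse 3 down to 8 in TAI/IVIg mouse 3. The log2 fold change was -1.70 in TAI/IVIg against control (SE 0.44, interval -2.71 to -0.69, limma adjusted p = 0.0138), -0.47 in TAI against control (limma adjusted p = 0.429) and -1.23 in TAI/IVIg against TAI (interval -2.23 to -0.22, limma adjusted p = 0.360). Tgtp1 has a near-identical neighbour, Tgtp2, and shares 223 exon bases with Gm12185 on the same strand. When the reads of Tgtp1 and Tgtp2 were summed, the log2 fold change in TAI/IVIg against control was -2.24 (limma voom adjusted p = 0.0204).

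Of the GBPs, Gbp2, which is lipid-anchored and loads onto vacuoles and bacteria, spanned the widest range in the TAI group, 3.59-fold. Gbp2 (ENSMUSG00000028270; chromosome 3, 142620602 to 142638008, plus strand) had 29.8, 21.3 and 43.6 FPKM in control mice 1, 2 and 3, 48.2, 88.8 and 24.7 in TAI mice, and 51.3, 10.9 and 4.34 in TAI/IVIg mice. Its log2 fold change was 0.63 in TAI against control (SE 0.76, interval -1.10 to 2.36, limma adjusted p = 0.543), -1.07 in TAI/IVIg against control (limma adjusted p = 0.270) and -1.70 in TAI/IVIg against TAI (interval -3.43 to 0.03, limma adjusted p = 0.390). The groups overlapped in each comparison.

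Gbp3 (ENSMUSG00000028268; chromosome 3, 142560026 to 142573209, plus strand), a member of the same gene cluster, had 46.7, 34.2 and 45.8 FPKM in control mice 1, 2 and 3, 29.2, 43.7 and 16.5 in TAI mice, and 36.5, 10.2 and 3.23 in TAI/IVIg mice. TAI mouse 2 and TAI/IVIg mouse 1 lay within the control range, and the other irradiated mice lay below it. Its log2 fold change was -1.82 in TAI/IVIg against control (SE 0.68, interval -3.35 to -0.29) and missed the threshold (limma adjusted p = 0.0529), whereas limma voom on recovered reads called it lower. In TAI against control it was -0.58 (limma adjusted p = 0.528).

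Gbp7 (ENSMUSG00000040253; chromosome 3, 142530342 to 142550149, plus strand), which aids assembly of the NADPH oxidase on vacuoles, had 12.0, 9.23 and 13.2 FPKM in control mice 1, 2 and 3, 21.5, 32.9 and 13.7 in TAI mice, and 31.4, 8.25 and 3.45 in TAI/IVIg mice. It was the only member whose TAI mice all lay above all controls, by a narrow margin in TAI mouse 3. Its log2 fold change of 0.86 in TAI against control (SE 0.62, interval -0.55 to 2.26) did not pass the test (limma adjusted p = 0.305), and in TAI/IVIg against control it was -0.17 (limma adjusted p = 0.834). Annotated exons of Gbp7 share 637 bases with Gm43802 on the same strand.

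Gbp6 (ENSMUSG00000104713; chromosome 5, 105270702 to 105293698, minus strand) belongs to the second mouse Gbp cluster. It had 5.12, 5.30 and 5.38 FPKM in control mice 1, 2 and 3, the tightest group of any member, then 5.33, 8.53 and 2.95 in TAI mice, and 6.80, 1.14 and 0.401 in TAI/IVIg mice. The spread between mice was thus 1.05-fold in controls and 17.0-fold in the TAI/IVIg group. Its log2 fold change was -0.02 in TAI against control (limma adjusted p = 0.984) and -1.13 in TAI/IVIg against control (limma adjusted p = 0.127). Annotated exons of Gbp6 share 1726 bases with Gm43302 on the same strand.

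**Figure D2:**
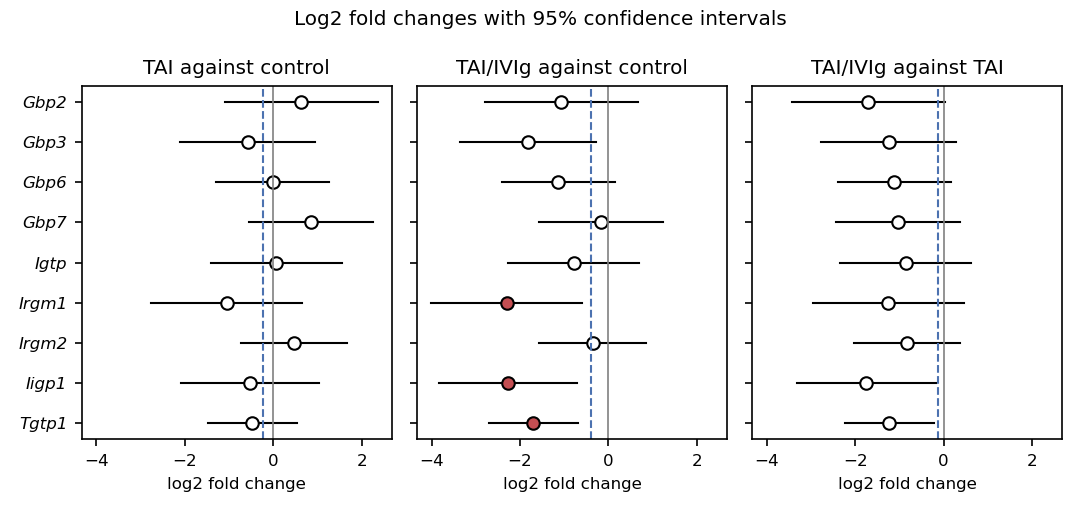
Log2 fold change (point) and 95% confidence interval (line) of the 9 genes in the 3 comparisons, from limma on log2(FPKM + 1) with 3 mice a group. Filled points passed an adjusted p of 0.05 (Irgm1, Iigp1 and Tgtp1 in TAI/IVIg against control), and dashed lines mark the median of all tested genes (-0.23, -0.39 and -0.13).

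In TAI against control none of the 9 passed the threshold in the fit of all 9 mice. In TAI against control limma called 0 members, 0 reached an unadjusted p of 0.05, and limma voom on reads recovered from the FPKM values also called 0, whereas 8.81% of all tested genes were called higher and 26.1% lower. With only the 6 mice compared in the fit, limma called 1 member lower (Irgm1), beside 3502 of 12792 tested genes. The members' log2 fold changes were positive in 4 and negative in 5, with a median of -0.02 beside -0.23 over all genes. Non-overlapping groups were seen for 1 member upward (Gbp7), where 15.1% of all genes had them, and for 1 member downward (Irgm1), where 38% did. In TAI/IVIg against control 3 of 9 were called lower and 0 higher, against 37.4% lower and 9.06% higher over all tested genes, so the share of members called was close to the background. Limma voom called 4 lower, these 3 and Gbp3, beside 4911 of 13056 tested genes. Irgm1, Iigp1 and Tgtp1 had groups that did not overlap (44.3% of all genes did so downward). The median log2 fold change of the members was -1.13 in this comparison, and that of all genes was -0.39. With library medians set equal, 0 members were called in either comparison with control, and the background became 1817 genes higher and 1685 lower in TAI (from 1150 and 3411) and 2708 higher and 1992 lower in TAI/IVIg (from 1183 and 4880). The count of 3 changed when single mice were left out. It was 1 (Tgtp1) without control mouse 1, control mouse 2, TAI/IVIg mouse 2 or TAI/IVIg mouse 3, 0 without control mouse 3, and 7 without TAI/IVIg mouse 1, when Gbp2, Gbp3, Gbp6 and Igtp joined. The count over all tested genes also moved. Without control mice 1, 2 and 3, limma called 4653 of 12741, 3528 of 12661 and 3350 of 12609 genes lower. Without TAI/IVIg mice 1, 2 and 3, it called 4145 of 12984, 4994 of 12952 and 3592 of 12998 lower.

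The comparison of TAI/IVIg with TAI asks what immunoglobulin changed in irradiated mice. The log2 fold changes of all 9 members were negative, from -0.83 (Irgm2) to -1.75 (Iigp1), with a median of -1.23 beside -0.13 over all genes. However, limma called 0 of 9, as it called 0% of all tested genes in either direction, and limma voom also called 0. At an unadjusted p of 0.05, 2 of 9 were lower (Iigp1 and Tgtp1), compared with 11.2% of all genes. No member separated the groups, which 16.1% of genes did downward. The 95% interval crossed 0 for 7 members and ended at -0.18 for Iigp1 and -0.22 for Tgtp1. A negative median of similar size was not limited to the members. It was -1.15 for 5 smooth muscle markers and -0.997 for 6 fibroblast markers, all of them negative. At an unadjusted limma p of 0.05, 5 of 5 and 6 of 6 were lower, although limma called 0. Medians of the other marker lists were -0.65 (endothelial), -0.32 (macrophage and monocyte), -0.063 (B cell), 0.074 (lymphocyte) and 0.094 (epithelial). In bulk tissue, fewer cells that express a gene and less RNA per cell cannot be told apart.

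In irradiated mice, the FPKM proportions of the members within a mouse were steadier than their levels. In controls this did not hold for Gbp6 and Iigp1, whose levels spanned only 1.05-fold and 1.13-fold. Many of these proportions differed between irradiated and control jejunum. This pattern was noticed in the values and carries no test. The FPKM of Irgm2 divided by that of Irgm1 was 0.52, 0.49 and 0.55 in control mice 1, 2 and 3, 1.44, 1.43 and 1.70 in TAI mice, and 1.41, 1.88 and 3.69 in TAI/IVIg mice. Irgm1 thus exceeded Irgm2 in all control mice and Irgm2 exceeded Irgm1 in all irradiated mice. A ratio within a library does not depend on how libraries are scaled. On the log2 scale the ratio was -0.95 ± 0.09 in controls, 0.60 ± 0.14 in TAI and 1.09 ± 0.71 in TAI/IVIg mice (SD, n = 3), a difference of 1.55 between TAI and control and of 2.04 between TAI/IVIg and control. An exact two-sided permutation test of 3 mice against 3 cannot give a p below 0.1.

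**Figure D3:**
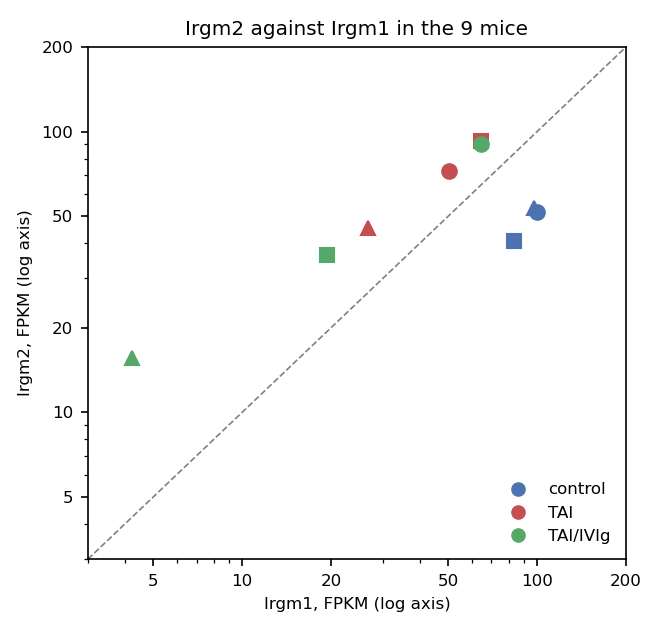
FPKM of Irgm2 against FPKM of Irgm1 in the 9 mice, on log axes, with a dashed line of equal levels, where symbols mark mice 1 (circle), 2 (square) and 3 (triangle). The 3 control mice lie below the line (ratios 0.49 to 0.55) and the 6 irradiated mice lie above it (1.41 to 3.69).

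Among the GBPs of chromosome 3 the same was found for Gbp7 to Gbp3 and for Gbp2 to Gbp3. In TAI mice it was not found for Gbp7 to Gbp2. Gbp7 to Gbp3 was 0.26, 0.27 and 0.29 in control mice, 0.74, 0.75 and 0.83 in TAI mice and 0.86, 0.81 and 1.07 in TAI/IVIg mice. Gbp2 to Gbp3 was 0.62 to 0.95 in controls, 1.50 to 2.03 in TAI mice and 1.06 to 1.40 in TAI/IVIg mice. Gbp7 to Gbp2 was 0.30 to 0.43 in controls, 0.37 to 0.55 in TAI mice and 0.61 to 0.80 in TAI/IVIg mice. Its TAI mice overlapped controls, and its TAI/IVIg mice lay above them. Irgm2 to Igtp, which share exon bases, was 0.39 to 0.40 in controls, 0.46 to 0.60 in TAI mice and 0.43 to 0.60 in TAI/IVIg mice. Neither irradiated group overlapped controls in this ratio. Over the 36 pairs of members, the log2 ratio did not overlap between TAI and control mice in 26, and 50.1% of all pairs of tested genes were separated in this way. For TAI/IVIg against control 25 of 36 pairs were separated (48.3% of all pairs). TAI/IVIg and TAI mice separated 10 of 36 pairs (19.1% of all pairs), and 20 of 36 with a pseudocount of 0.1.

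Each member was also set against the mean of the 9 in its own mouse. Relative to that mean, Irgm1 was lower in TAI than in control mice by a log2 difference of -0.99, Gbp3 by -0.51 and Iigp1 by -0.46, with no overlap between mice. Gbp7 was higher by 0.93, Gbp2 by 0.70 and Irgm2 by 0.54, also with no overlap. Tgtp1 (-0.40), Gbp6 (0.05) and Igtp (0.14) overlapped. In TAI/IVIg against control mice Irgm1 (-1.01), Iigp1 (-0.98) and Gbp3 (-0.53) were relatively lower and Gbp7 (1.12), Irgm2 (0.93) and Igtp (0.50) relatively higher without overlap. Between the irradiated groups, Iigp1 (-0.53) was relatively lower and Igtp (0.37) and Gbp7 (0.20) relatively higher in TAI/IVIg than in TAI mice without overlap. The members share the mean, so a fall in some raises others relative to it. No background share of other genes was computed for this measure, and these separations carry no test. For ratios of gene pairs, 50.1% of all pairs were separated in TAI against control and 48.3% in TAI/IVIg against control. In TAI/IVIg against TAI the share was 19.1%.

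**Figure D4:**
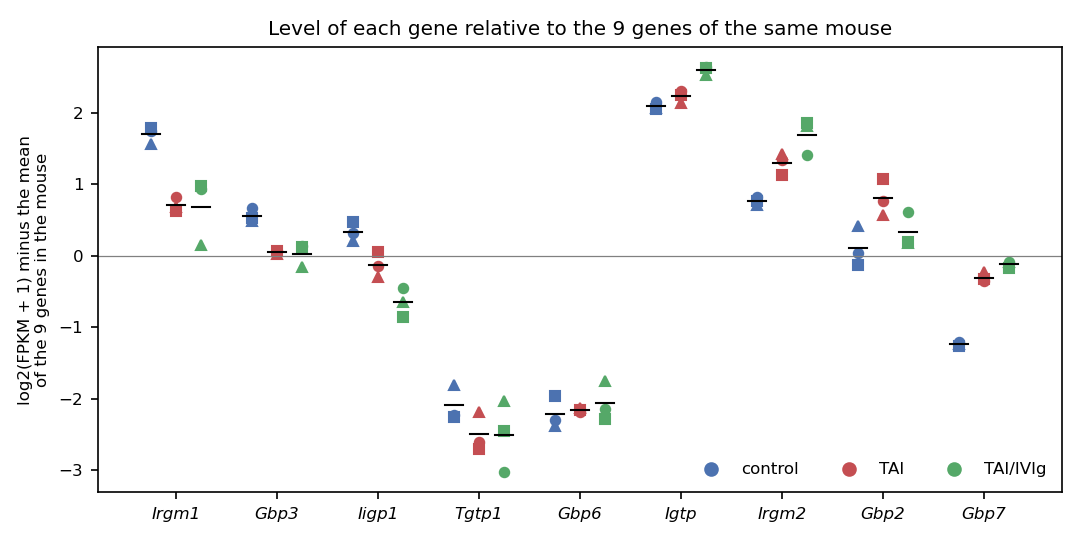
Log2(FPKM + 1) of each gene minus the mean of the 9 genes in the same mouse, for control, TAI and TAI/IVIg mice (symbols mark mice 1, 2 and 3 as circle, square and triangle, and lines mark group means, n = 3). Genes are ordered by the difference between TAI and control, from Irgm1 (-0.99) to Gbp7 (0.93).

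Most of the other genes of the families varied in a like way. Of 19 further Gbp and IRG genes listed, 16 were matched by symbol and 10 were tested, and 7 of these 10 had the order of mice seen in the members. In TAI against control limma called 0 of the 10 (0 at an unadjusted p of 0.05, and 0 by limma voom), and Gbp5, which promotes inflammasome assembly, had the largest log2 fold change, 1.40 (limma adjusted p = 0.126). Gbp5 was at 2.92 to 5.05 FPKM in controls, 6.37 to 17.5 in TAI mice and 0.656 to 11.9 in TAI/IVIg mice. In TAI/IVIg against control 2 of 10 were lower, below the 37.4% of all tested genes, namely Tgtp2 (log2 fold change -1.53, limma adjusted p = 0.0325) and Gm4951 (-1.44, limma adjusted p = 0.0249). Ifi47 (IRGD) and Gm12250 (IRGB10) were the most abundant of these genes, with control means of 69.0 ± 14.8 and 61.8 ± 15.6 FPKM (SD, n = 3), and gave -0.76 and -0.69 in that comparison (limma adjusted p = 0.238 and 0.470). Gbp4 (0.61), Gbp8 (0.25), Gbp9 (0.05), Gbp2b (0.00), Gm12250 (0.35), Ifi47 (0.01), Irgq (0.07), Tgtp2 (0.13) and Gm4951 (-0.20) had smaller log2 fold changes in TAI against control. Gbp2b, Gbp8 and Irgq differed least between mice, with at most a 2.05-fold range in any group. In TAI/IVIg against TAI limma called 0 of the 10, as it called 0% of all tested genes, and limma voom also called 0. At an unadjusted p of 0.05, 5 of the 10 were lower, compared with 11.2% of all genes. Gbp9 and Tgtp2 separated these groups downward, which 16.1% of all genes did.

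At the top of the pathway, Ifng itself, the ligand, had 0 to 4 reads in any mouse and was not tested. Ifngr1 was at 71.0 to 83.4 FPKM in controls and 74.1 to 97.9 in irradiated mice and was not called (log2 fold changes 0.27 and 0.12 in TAI and TAI/IVIg against control, limma adjusted p = 0.134 and 0.464). Ifngr2 was 0.69 higher in TAI/IVIg against control (limma adjusted p = 0.00846) and 0.40 in TAI against control (limma adjusted p = 0.0819). Of the 14 signalling genes tested, those called numbered 2 higher and 0 lower in TAI, with 3 higher and 1 lower in TAI/IVIg, each set against control. At an unadjusted p of 0.05, 4 were higher and 1 lower in each. By limma voom 3 were higher and 0 lower in TAI, and 3 higher and 1 lower in TAI/IVIg. Of all tested genes 8.81% were called higher and 26.1% lower in TAI, and 9.06% and 37.4% in TAI/IVIg. Irf1, a transcription factor that acts at ISRE elements, was higher in both by 0.99 and 0.80 (limma adjusted p = 0.0113 and 0.0190). It stood at 34.1 to 40.7 FPKM in controls, 67.0 to 84.1 in TAI mice and 50.3 to 97.5 in TAI/IVIg mice, so that all irradiated mice were above all controls. Stat3 was higher by 0.85 and 0.78 (limma adjusted p = 0.0035 and 0.00298), and Irf8, of myeloid and B cells, was lower in TAI/IVIg (-0.84, limma adjusted p = 0.0170).

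Among 10 inhibitors of the pathway, 2 were higher and 1 lower in TAI against control, and 2 higher and 2 lower in TAI/IVIg against control. The lower calls were below the 26.1% and 37.4% of all tested genes, and the higher ones stand beside 8.81% and 9.06%. Socs3, an inhibitor of gp130 and JAK signalling, was at 12.9 to 13.0 FPKM in controls and rose to 76.3 to 124 in TAI and 65.9 to 89.5 in TAI/IVIg mice, with log2 fold changes of 2.92 and 2.55 (limma adjusted p = 0.00015 and 0.000151). Cish rose by 1.00 and 0.70 (limma adjusted p = 0.0105 and 0.0325), and Ptpn2 had -0.57 and -0.72 (limma adjusted p = 0.0193 and 0.00529). Ptpn11 passed in TAI/IVIg alone of the comparisons with control, with -0.59 (limma adjusted p = 0.0215). Socs1, the direct feedback inhibitor of JAK kinases in interferon signalling, was not called (0.82 and 0.23, limma adjusted p = 0.280 and 0.751). It was 12.3 FPKM in TAI/IVIg mouse 1 and 1.19 in mouse 3.

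Among other targets of interferon γ the counts of lower genes were no larger than the background. Of 27 tested, 0 were higher and 7 lower in TAI against control (8.81% and 26.1% of all genes), and 0 higher and 8 lower in TAI/IVIg against control (9.06% and 37.4% of all genes). At an unadjusted p of 0.05 and by limma voom 0 were higher in each. The list had medians of 0.10 and -0.29 beside -0.23 and -0.39 over all genes. The largest of the called changes were in Il18bp, which binds and blocks interleukin-18 (-1.79 and -2.26, limma adjusted p = 0.00285 and 0.000786), Upp1, a uridine phosphorylase (-1.78 in each, limma adjusted p = 0.00742 and 0.00483), and Wars, a tryptophanyl-tRNA synthetase (-0.34 in TAI, limma adjusted p = 0.288, and -1.28 in TAI/IVIg, limma adjusted p = 0.00295). The other 5 called in TAI, named after their values were seen, were the immunoproteasome genes Psmb8 (-0.87), Psmb9 (-1.10) and Psmb10 (-0.75) and the proteasome activator genes Psme1 (-1.04) and Psme2 (-0.72). The chemokine ligands Cxcl9 and Cxcl10 were not called (1.03 and 2.03 in TAI, -0.94 and -0.29 in TAI/IVIg, all with a limma adjusted p of at least 0.244). Cxcl10 was 13.8 to 32.0 FPKM in controls, 50.6 to 171 in TAI mice, and 174, 19.9 and 1.30 in TAI/IVIg mice 1, 2 and 3, the order of mice seen in the members.

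Type I interferon-stimulated genes had medians of -0.42 and -1.16 in TAI and TAI/IVIg against control, beside -0.23 and -0.39 over all genes. Of 23 tested, 2 were lower and 0 higher in TAI and 5 lower and 0 higher in TAI/IVIg, and 0 were higher at an unadjusted p of 0.05 or by limma voom in either. These counts of lower genes lay below the share of all tested genes called lower (26.1% and 37.4%). Bst2 (tetherin) had -2.04 and -2.99 (limma adjusted p = 0.0192 and 0.00282), Ifi44 -1.96 and -2.88 (limma adjusted p = 0.0235 and 0.00334), and Mx1, an antiviral GTPase, -0.81 and -1.83 (limma adjusted p = 0.276 and 0.0247).

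The order of mice in the members was common in the interferon lists and, apart from 3 of 6 fibroblast markers, was found in at most 2 genes of any other list. It was found in 18 of 27 other interferon γ targets, 16 of 23 type I interferon-stimulated genes, 8 of 14 signalling genes and 4 of 10 inhibitors, against 6.6% of all tested genes. It was found in 1 of 19 autophagy and loading partners, 2 of 12 genes of cytosolic sensing, 2 of 12 macrophage and monocyte markers, 0 of 11 tested lymphocyte markers, 0 of 5 B cell markers, 1 of 5 endothelial markers, 0 of 5 smooth muscle markers and 1 of 12 epithelial markers. These are shares of chosen lists and carry no test.

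**Figure D5:**
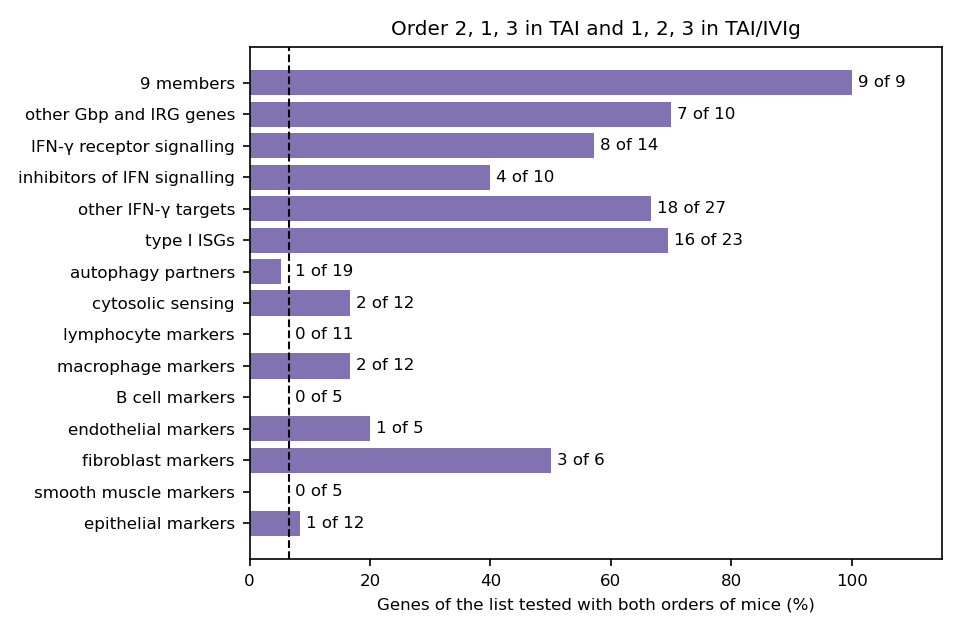
Percentage of the tested genes of each list with the mouse order 2, 1, 3 in TAI and 1, 2, 3 in TAI/IVIg, from highest FPKM to lowest, with counts beside the bars. The dashed line is the share of all tested genes (6.6%), and the members (9 of 9), the other family genes (7 of 10), the interferon lists (4 of 10 to 16 of 23) and the fibroblast markers (3 of 6) lie farthest above it.

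The genes whose levels over the 9 mice were most like the mean standardized value of the members were, outside the families, Enpp4 (Pearson's r = 0.98), Tor3a (0.98), Gm12185 (0.98), Nlrc5 (0.98) and Tent4a (0.97). Gm12185 overlaps exons of Tgtp1, and Nlrc5 is the transactivator of MHC class I genes. Of 13037 genes outside the families 0.207% had an r of at least 0.95. After group means were subtracted, the 5 most alike were Nlgn2 (1.00), Phf11d (0.99), Enpp4 (0.99), Eif2ak2, the double-stranded RNA kinase PKR (0.99), and Ifi204, a DNA sensor of the AIM2-like family (0.99), and 0.974% reached 0.95. All of these share the same 9 libraries.

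The GBPs and IRGs need the ATG5 conjugation system to be placed on target membranes, and GBPs lead to inflammasome activation. In the list of 19 autophagy and loading partners, 2 were higher and 2 lower in TAI against control, and 1 higher and 2 lower in TAI/IVIg against control, with medians of 0.05 and -0.13 beside -0.23 and -0.39 over all genes. Lower calls were below the background of 26.1% and 37.4%, and higher calls stand beside 8.81% and 9.06%. Map1lc3a (0.86) and Map1lc3b (0.51), which encode LC3 proteins, were higher in TAI (limma adjusted p = 0.0182 and 0.0123), and Gabarap was higher in TAI/IVIg (0.45, limma adjusted p = 0.0367). The ubiquitin-conjugating enzyme gene Ube2n was lower in both groups (-0.72 and -0.81, limma adjusted p = 0.00253 and 0.00108), Atg5 was lower in TAI (-0.38, limma adjusted p = 0.0390) and Atg7 in TAI/IVIg (-0.37, limma adjusted p = 0.0461).

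Among 12 genes of cytosolic sensing, 2 were higher and 5 lower in TAI and 3 higher and 5 lower in TAI/IVIg, each against control. Over all tested genes 8.81% were higher and 26.1% lower in TAI, and 9.06% and 37.4% in TAI/IVIg, so the lower calls in TAI/IVIg were close to the background. Pycard, the inflammasome adaptor ASC, was at 17.5 to 26.3 FPKM in controls and 0.761 to 2.60 in irradiated mice (log2 fold changes -2.97 and -3.12, limma adjusted p = 0.00035 and 0.00016). Il18 had -2.26 and -2.05 (limma adjusted p = 0.00356 and 0.00334) and Aim2, a DNA sensor, -0.96 and -1.61 (limma adjusted p = 0.0365 and 0.00317). Gsdmd, which encodes the pore protein gasdermin D, was higher by 1.19 and 1.49 (limma adjusted p = 0.00168 and 0.000455), Nlrc4 by 0.51 and 0.52 (limma adjusted p = 0.0138 and 0.00895), and Naip5 by 0.59 in TAI/IVIg (limma adjusted p = 0.00885). The TAI and TAI/IVIg values of all lists share the control mice.

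Library depth, recovered from the FPKM values, was 16284695 to 18244889 reads. TAI/IVIg mouse 3, the lowest for every member, had the fewest genes at 1 FPKM or more (10386) and the largest share of mitochondrial reads (7.97%, against 3.03% to 5.90% in the other 8 mice). TAI/IVIg mouse 1, the highest of its group, was next lowest in genes (10992). The labels name epithelial tissue, but markers of other cells were present. Summed FPKM of 5 smooth muscle markers in TAI/IVIg mice 1, 2 and 3 was 421, 224 and 87.8, and that of 6 fibroblast markers 47.9, 42.0 and 21.1, which is the order of the members in that group. Limma called 4 of the 6 fibroblast markers and 0 of the 5 smooth muscle markers lower in TAI/IVIg against control, where 37.4% of all tested genes were lower (5 and 1 at an unadjusted p of 0.05, 5 and 0 by limma voom). In TAI mice 1, 2 and 3 smooth muscle markers gave 466, 407 and 589, highest in the mouse with the lowest members. Fibroblast markers gave 73.7, 94.2 and 79.0 in these mice, which is not the order of the members. The 12 macrophage and monocyte markers summed to 153, 314 and 85.8 in TAI/IVIg mice, 147 to 329 in TAI and 194 to 375 in control mice. Lyz2 alone ran from 18.7 to 195 FPKM in TAI/IVIg mice. Mean log2(FPKM + 1) of these 12 was 2.90, 3.14 and 2.37 in TAI/IVIg mice, 2.92 to 3.30 in TAI and 3.28 to 3.50 in control mice. Against control, limma called 1 higher and 2 lower in TAI, and 0 higher and 2 lower in TAI/IVIg. Over all tested genes 8.81% and 26.1% were called in TAI, and 9.06% and 37.4% in TAI/IVIg. The 19 markers of lymphocytes that make interferon γ summed to 61.2 to 104 in TAI/IVIg, 53.1 to 101 in TAI and 71.5 to 108 in control mice, with none at 0. Among them Gzma had group means of 22.5, 32.7 and 39.7 FPKM in control, TAI and TAI/IVIg mice. Mean log2(FPKM + 1) of the 19 was 1.48 to 2.12 in control, 1.18 to 1.39 in TAI and 1.20 to 1.41 in TAI/IVIg mice. Limma called 2 of 11 tested lower and 0 higher in each comparison with control. Of all tested genes, 26.1% were lower in TAI and 37.4% in TAI/IVIg. Endothelial markers (5) gave 9.12 to 16.1 in TAI/IVIg, 19.3 to 25.5 in TAI and 12.6 to 21.3 in control mice, and B cell markers (5) ran from 1.20 to 378 over all mice, with Pax5 at 0 in 1. The 12 epithelial markers summed to 30548 to 34228 in TAI/IVIg, 22321 to 34665 in TAI and 13488 to 19544 in control mice. Fabp2 alone had group means of 9030, 19955 and 20624 FPKM in control, TAI and TAI/IVIg mice. Mean log2(FPKM + 1) of the 12 was 8.81 to 9.13 in control, 8.87 to 9.12 in TAI and 8.97 to 9.14 in TAI/IVIg mice. Against control, 3 were called higher and 4 lower in TAI, and 5 higher and 4 lower in TAI/IVIg. The higher calls stand beside 8.81% and 9.06% of all tested genes, and the lower calls beside 26.1% and 37.4%. The part of cell composition and RNA quality in the levels of the members was not tested.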

How the data were processed

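RNA of 9 jejuna was sequenced by the authors, and the deposited table holds FPKM values of 31685 genes. The submitters' processing notes name FastQC, Trimmomatic, STAR, featureCounts, DESeq2 and GRCm38 (mm10), without versions, and whether reads were counted by strand is not given in the sources used here. Gene positions came from GENCODE M21 and promoters from RefSeq. The members and lists were chosen with earlier results of these data known.

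Genes with at least 1 FPKM in at least 3 mice were tested on log2(FPKM + 1) with limma 3.58.1 in R 4.3.3 (trend, all 9 mice in 1 fit, two-sided, Benjamini-Hochberg over 13056 genes, call at an adjusted p under 0.05). FPKM is not a count, so fold changes of low genes are understated by the pseudocount. FPKM values were whole multiples of 1 read (tolerance 0.01) for 100% of genes, which gave depths of 16284695 to 18244889 reads. Limma voom on those reads called 1167 genes higher and 3315 lower in TAI, and 1187 and 4911 in TAI/IVIg, against control, and 0 between TAI/IVIg and TAI. All 9 members, all tested genes of the families, and per list the ligands, receptors and up to 3 genes each way with the largest called change are named, with the 5 genes most like the members by each measure. Replicates are single mice, as far as the labels say.

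Alternatives changed the pseudocount (0.1), the filter (none, or 5 FPKM on average), the scaling, the mice fitted, the trend, the replicate block or the unit (voom). Proteins and the promoters of Gbp6 and Iigp1 were not analysed here.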

Additional observations from a re-analysis of the deposited data

How the results depend on the processing

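Of 516 values of single members under alternatives, 474 kept their direction and side of the threshold, 22 lost a call, 7 gained one and 13 changed sign. None of the sign changes was in a called value, and the cause of the differences was not tested. In TAI against control, 1 member (Irgm1) was called with only the 6 mice compared and 0 under each other setting (0 to 0 with each mouse left out). In TAI/IVIg against control the count of 3 became 1 with no filter, 0 with library medians set equal, 0 with quantile normalization, 1 with median-ratio library sizes, 2 with only the 6 mice compared (without Irgm1) and 4 with voom on recovered reads (with Gbp3), and 0 to 7 with each mouse left out. It was 2 with a mean FPKM of at least 5, where Gbp6 and Tgtp1 were not tested. Over all tested genes, those called lower in this comparison numbered 4650 of 31685 with no filter and 2465 of 6398 with a mean of at least 5. Of 13056, they were 1992 with medians set equal, 2253 with quantile normalization and 2381 with median-ratio library sizes. With only the 6 mice compared they were 3902 of 12381. TAI/IVIg against TAI gave 0 under every setting (0 to 0 with each mouse left out).

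Gbp6 in TAI against control turned to 0.27 with library medians set equal, 0.27 with quantile normalization and 0.25 with median-ratio library sizes (-0.33 to 0.31 with each mouse left out), and Igtp ranged from -0.25 to 0.45 with each mouse left out. Gbp7 in TAI/IVIg against control turned to 0.37, 0.22 and 0.25 under the same 3 settings (-0.95 to 0.49 with each mouse left out), and Irgm2 to 0.22 with medians set equal and 0.093 with median-ratio library sizes (-0.98 to 0.25 with each mouse left out).

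The replicate numbers correlated in deviation by 0.24 to 0.31 between control and TAI mice but by -0.30 to 0.18 between control and TAI/IVIg mice, so they were not taken as pairs. A mouse correlated best with its own number in 11 of 18 matches to another group. With the replicate block, 0, 4 (with Gbp3) and 0 members were called in the 3 comparisons. Of all 13056 tested genes, 3672, 4984 and 3 were called lower with this block.

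Chosen after seeing the data, other scalings left all 9 members in the described order of mice. A pseudocount of 0.1 raised the separated pairs between TAI/IVIg and TAI from 10 to 20. The Irgm2 to Irgm1 log2 difference was 1.47 to 1.60 in TAI and 1.65 to 2.35 in TAI/IVIg with each mouse left out.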
